A study of Arabidopsis thaliana with 14 samples.

Results

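The Aux/IAA genes of Arabidopsis thaliana encode short-lived repressors of auxin responses, and 10 of them are described here, namely IAA1 (AT4G14560), IAA2 (AT3G23030), IAA3 or SHY2 (AT1G04240), IAA4 (AT5G43700), IAA5 (AT1G15580), IAA6 (AT1G52830), IAA7 or AXR2 (AT3G23050), IAA17 or AXR3 (AT1G04250), IAA19 or MSG2 (AT3G15540) and IAA29 (AT4G32280). They were taken by their TAIR identifiers from an RNA-seq table of 27861 genes, and all 10 were found in it. The other 19 genes of the family were used for comparison. Entire rosettes of Col-0 plants, 28 d old at priming, were pooled from at least 5 plants per library, and 14 libraries were made, 1 for each condition. Growth light was 100 to 110 µmol m-2 s-1 for 10 h per day. Primed plants (P) had spent 24 h at 4 °C and were then kept at 20 °C for 5 d, and control plants (C) had stayed at 20 °C throughout. Both were wild type and were sampled before triggering (P0 and C0) and after 30, 60 and 120 min of either cold at 4 °C (suffix C) or heat-filtered high light of 800 µmol m-2 s-1 at 20 °C (suffix L), so that P60L is the primed library after 60 min of high light.

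Aux/IAA proteins bind the auxin response factors (ARFs) on DNA and recruit the corepressor TOPLESS, which keeps auxin-responsive genes off. Auxin joins an Aux/IAA protein to the F-box receptors TIR1 and AFB through a short stretch called the degron, and the repressor is then ubiquitinated and degraded. Many Aux/IAA genes are themselves early auxin-responsive genes, so that the pathway produces its own repressors, and in leaves several of them are known to respond to shade and warmth.

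No condition had a second library, and the differences below therefore carry no error and no p-value. Values are FPKM (fragments counted per exon length and sequencing depth), which are per length and can be compared between genes. "Rose" and "fell" are used for a ratio of at least 1.5-fold, that is 0.58 on the log2 scale, over the untriggered library of the same plants. Such a ratio also holds any change with the time of day, because untriggered plants were sampled only at the start. The paper names a separate lamp for high light and neon tubes elsewhere. In high light a change of lamp thus cannot be told apart from a change of light intensity. In rosettes pooled whole, a change in the share of cells that express a gene cannot be told apart from a change in RNA per cell. All 10 genes passed the filter on low values, which 15001 genes passed in all.

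The libraries were similar in their general properties. Their FPKM values added up to between 700526 and 744648, and the median log2 ratio to C0 over all analysed genes was -0.12 to 0.00. Relative depth, read from the smallest steps between FPKM values of weak genes, was 0.938 (P120C) to 1.46 (P30L) times that of C0. The label of rosette leaves was borne out by the summed FPKM of 4 leaf markers, which was 45243 to 57769. By comparison, 4 root markers added up to 11.3 to 27.4 FPKM. EXPA7 and EXPA18 of root hairs were listed at 0 in 11 and 12 libraries, but PYK10 in none. PYK10 reached 27.4 FPKM and made up nearly all of the root sum. Of 4 floral markers, which added up to 0.96 to 2.71 FPKM, AP1 was listed at 0 in 12 libraries and AG in none, with up to 2.66 FPKM, and 4 vascular markers added up to between 32.5 and 52.0 FPKM.

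The degron is encoded by each of the 10 transcripts, and its coding sequence is shown because this stretch ties a repressor's lifetime to auxin. The core searched was GGNTGGCCNCCNGTN in the reading frame (N is any base), and it is given in capitals within 33 bases of the coding strand (RefSeq, TAIR10.1).
IAA1 (chr4:8361436.0-8361468.0, plus strand): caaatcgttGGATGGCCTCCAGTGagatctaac
IAA2 (chr3:8181384.0-8181416.0, minus strand): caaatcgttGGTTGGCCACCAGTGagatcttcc
IAA3 (chr1:1129016.0-1129048.0, minus strand): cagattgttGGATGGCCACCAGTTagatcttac
IAA4 (chr5:17550740.0-17550772.0, plus strand): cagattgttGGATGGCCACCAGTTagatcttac
IAA5 (chr1:5366272.0-5366304.0, minus strand): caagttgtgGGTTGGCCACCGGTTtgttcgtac
IAA6 (chr1:19673320.0-19673352.0, minus strand): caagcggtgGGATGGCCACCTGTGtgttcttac
IAA7 (chr3:8195568.0-8195600.0, plus strand): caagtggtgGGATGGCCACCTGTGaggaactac
IAA17 (chr1:1136938.0-1136970.0, plus strand): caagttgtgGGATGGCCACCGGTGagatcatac
IAA19 (chr3:5264307.0-5264339.0, plus strand): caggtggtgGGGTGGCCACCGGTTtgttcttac
IAA29 (chr4:15583942.0-15583974.0, plus strand): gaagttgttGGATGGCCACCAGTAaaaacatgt
The core occurred once in frame in 10 of 10 members and in 7 of the other 19 family genes. Only this form of the core was searched, so a gene without a match is not shown to lack a degron. Between IAA3 and IAA4 the whole window was identical, and the longest identical run between transcripts over 235 pairs of family genes, 42 bases, also lay between these 2 genes and is shorter than the reads.

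Before triggering the members spanned a wide range of levels. IAA7, known from the auxin-resistant mutant axr2, had 114 FPKM in P0 and 113 FPKM in C0. IAA17, known from axr3, had 85.6 FPKM in P0 and 87.6 FPKM in C0. These 2 genes were the most abundant members and made up 55.3% of the summed FPKM of the 10 genes in P0 and 54.2% in C0. IAA3, whose product limits the size of the root meristem, stood at 65.3 FPKM in P0 and 64.6 FPKM in C0, and IAA2, an early auxin-induced gene, at 46.4 FPKM in P0 and 55.0 FPKM in C0. IAA1 and IAA4 followed with 18.9 and 17.6 FPKM in P0 and 18.7 and 17.3 FPKM in C0. The weakest were IAA19, IAA6, IAA5 and IAA29, which had 5.04, 3.56, 2.71 and 1.58 FPKM in P0 and 5.04, 4.88, 2.83 and 1.24 FPKM in C0. The order of the 10 genes was the same in both libraries. How far neighbours in this order differ beyond the variation between plants could not be assessed with 1 library each, and IAA1 and IAA4 lay closest together among the stronger members.

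No member passed 1.5-fold between primed and control plants before triggering, where 0.427% of all analysed genes were higher and 2.68% lower in P0 than in C0. The lowest log2 ratio P0/C0 was that of IAA6 (-0.46) and the highest that of IAA29 (0.35), and 8 of the 10 lay between -0.24 and 0.02.

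**Figure D1:**
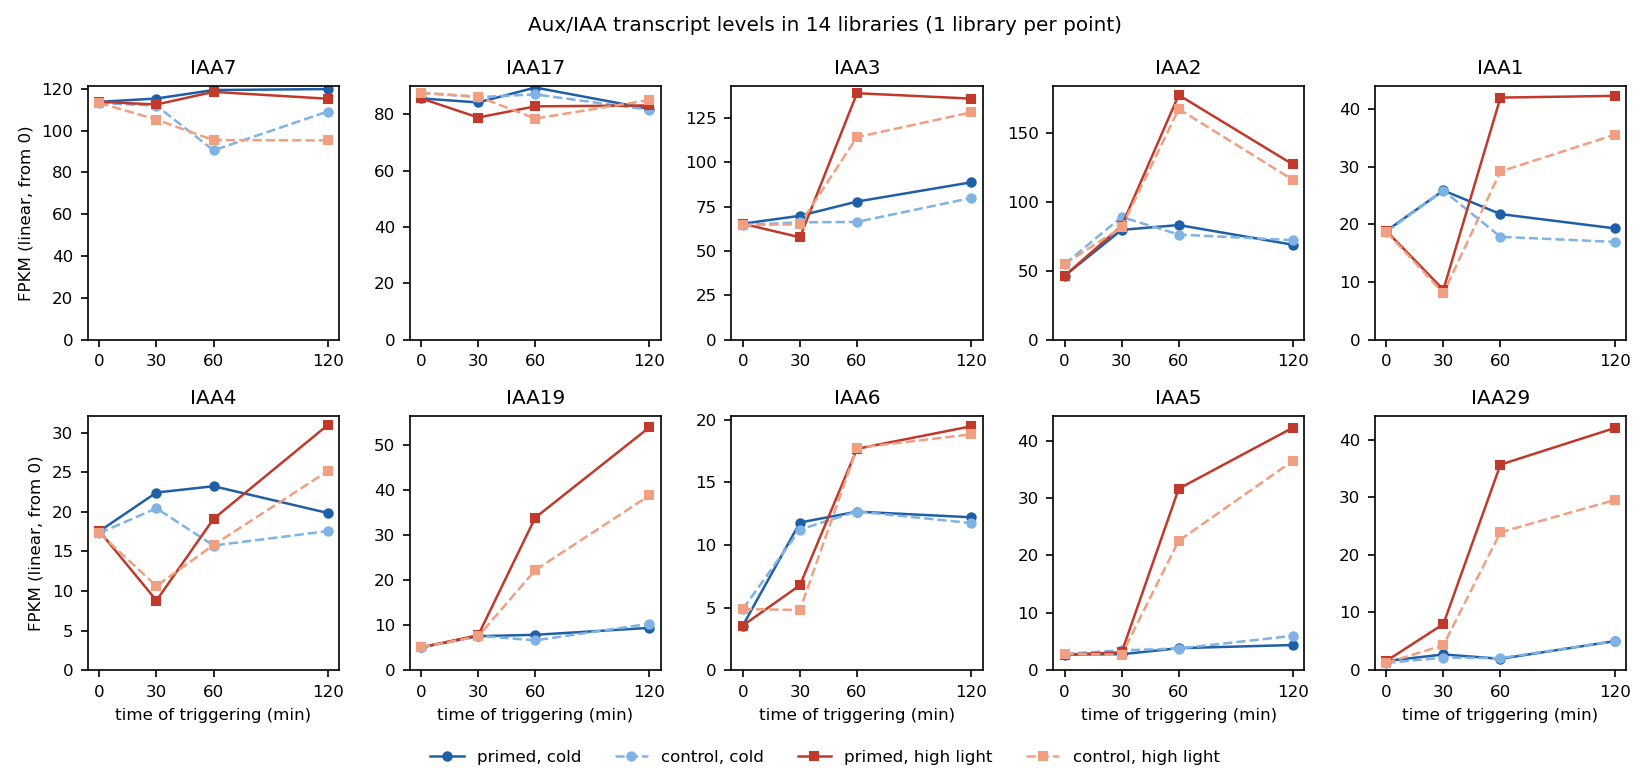
FPKM of the 10 Aux/IAA genes (linear axes from 0) against the time of triggering in min, with 1 library per point, for primed plants (solid lines) and control plants (dashed lines) in cold (blue circles) and high light (red squares). IAA29, IAA5 and IAA19 lay below 11 FPKM throughout the cold and reached 29.5 to 53.9 FPKM after 120 min of high light, whereas IAA7 and IAA17 stayed almost level.

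In high light most members rose from 60 min on. After 60 min, 7 of 10 members had risen in primed plants, where 10.8% of all analysed genes rose and 10.4% fell, and 7 of 10 had risen in control plants, where 10.1% rose and 10.6% fell. These were the same 7 genes, IAA1, IAA2, IAA3, IAA5, IAA6, IAA19 and IAA29. No member was lower by 1.5-fold at this time. The median log2 ratio of the 10 genes was 1.55 in P60L/P0 and 1.21 in C60L/C0, against -0.03 and -0.04 for all analysed genes. After 120 min, 8 members had risen in primed plants (15% of all genes higher, 10.9% lower) and 7 in control plants (13.3% higher, 17.1% lower). The additional gene was IAA4. The 6 responses of each set of plants share P0 or C0 as denominator, while P/P0 and C/C0 share no library.

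IAA29 gave the largest response of the members. This gene is a known target of the phytochrome-interacting factors, which promote growth in shade. In primed plants it stood at 1.58, 7.99, 35.7 and 42.0 FPKM after 0, 30, 60 and 120 min of high light, and in control plants at 1.24, 4.32, 23.9 and 29.5 FPKM. Each high-light library thus lay above both untriggered ones, already at 30 min. Its log2 response was 4.73 in P120L/P0 and 4.57 in C120L/C0, which placed it at rank 16 and rank 22 from the top among the 15001 analysed genes. In cold it was 5.02 FPKM in P120C and 5.02 FPKM in C120C.

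IAA5 and IAA19 reached their high levels from 60 min on. Together with IAA6, both have been tied in Arabidopsis to tolerance of drought. IAA5 stood at 2.71, 3.09, 31.6 and 42.3 FPKM along the high-light course of primed plants and at 2.83, 2.68, 22.6 and 36.5 FPKM along that of control plants. At 30 min it was thus still within 1.5-fold of its start, and its log2 response at 60 min was 3.54 in P60L/P0 and 2.99 in C60L/C0. IAA19, whose gain-of-function mutant msg2 has impaired hypocotyl bending, stood at 5.04, 7.74, 33.8 and 53.9 FPKM in primed plants and at 5.04, 7.49, 22.2 and 38.8 FPKM in control plants. Its value at 120 min corresponded to a log2 response of 3.42 in P120L/P0 and 2.94 in C120L/C0. Over the 14 libraries IAA5 and IAA19 had the most similar patterns of all pairs of members (r = 0.98 on log2(FPKM + 1), n = 14 libraries that include both triggers), and IAA19 was closer to IAA5 than any other analysed gene.

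IAA6, a close relative of IAA19 that is linked to the repression of adventitious rooting, responded to both triggers. In high light it stood at 3.56, 6.78, 17.7 and 19.5 FPKM in primed plants and at 4.88, 4.80, 17.8 and 18.8 FPKM in control plants. The courses met from 60 min on, and the larger log2 response of primed plants (2.45 in P120L/P0, 1.95 in C120L/C0) went with their lower value before triggering.

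The abundant members IAA2 and IAA3 rose by smaller factors. IAA2 stood at 46.4, 82.8, 178 and 127 FPKM in primed plants and at 55.0, 81.7, 168 and 116 FPKM in control plants in the course of high light, so that it was highest at 60 min in both. IAA3 stood at 65.3, 57.7, 139 and 136 FPKM in primed plants and at 64.6, 65.0, 114 and 128 FPKM in control plants. From 60 min on it lay above IAA7, which had 118 FPKM in P60L and 95.4 FPKM in C60L. In C120L and in P120L the order of levels was IAA3, IAA2, IAA7, IAA17, IAA19, IAA5, IAA1, IAA29, IAA4, IAA6.

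IAA1 and IAA4 were low early in high light. IAA1, known from the auxin-resistant mutant axr5, stood at 18.9, 8.67, 42.0 and 42.3 FPKM in primed plants and at 18.7, 8.07, 29.2 and 35.5 FPKM in control plants. Hence it fell at 30 min (log2 -1.12 in P30L/P0, -1.21 in C30L/C0) and had risen at 60 min (1.15 in P60L/P0, 0.64 in C60L/C0). The rise in C60L/C0 was 0.57, and thus below the threshold, when libraries were scaled to the reference genes. IAA4, one of the first Aux/IAA genes isolated from Arabidopsis, stood at 17.6, 8.79, 19.1 and 31.0 FPKM in primed plants and at 17.3, 10.6, 15.8 and 25.1 FPKM in control plants. It fell at 30 min in both (-0.998 in P30L/P0, -0.70 in C30L/C0) and returned to its starting range at 60 min. These were the only members below their start by 1.5-fold in any response, at a time when 7.17% of all genes fell in P30L/P0 and 6.91% in C30L/C0. At the same time 4 members rose in primed plants (8.08% of all genes), namely IAA2, IAA6, IAA19 and IAA29, and 1 in control plants (3.99% of all genes), which was IAA29. With log2 ratios of 0.57 each, IAA2 and IAA19 lay just below the threshold in C30L/C0.

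IAA7 and IAA17 did not pass 1.5-fold in any comparison. Over the 14 libraries IAA7 ranged between 90.6 FPKM (C60C) and 120 FPKM (P120C), a highest-to-lowest ratio of 1.32, and IAA17 between 78.4 FPKM (C60L) and 89.4 FPKM (P60C), a ratio of 1.14. Their share of the summed FPKM of the 10 members was 28.8% in P60L and 29.6% in C60L, because the sum of all members was 698 FPKM in P60L and 587 FPKM in C60L, against 360 FPKM in P0 and 370 FPKM in C0.

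**Figure D2:**
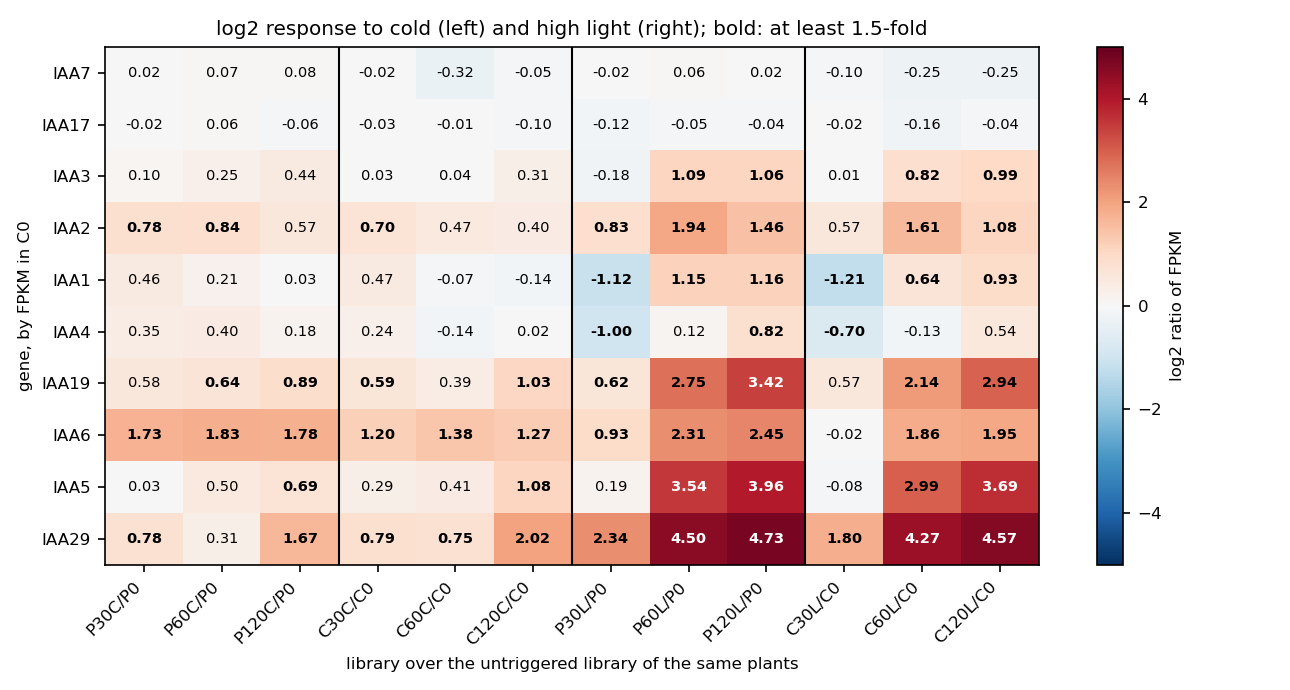
Log2 ratio of FPKM of each member (rows, ordered by FPKM in C0) in each triggered library over the untriggered library of the same plants (columns), for cold on the left and high light on the right, with primed plants left of control plants in each; red is higher, blue is lower, and bold marks at least 1.5-fold. The values reached 4.73 for IAA29 in P120L/P0, and the only blue cells past the threshold are IAA1 and IAA4 at 30 min of high light.

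In cold no member fell, and the median response of the members was smaller than in high light at 60 and 120 min. At 30 min it was larger than in high light, where it was 0.09 in P30L/P0 and -0.02 in C30L/C0. In primed plants 3, 3 and 4 members had risen after 30, 60 and 120 min, where 6.68%, 9.35% and 9.75% of all analysed genes rose and 1.15%, 2.5% and 8.74% fell. In control plants 4, 2 and 4 members had risen, where 4.05%, 6.43% and 7.96% of all genes rose and 5.39%, 4.41% and 8.99% fell. The median log2 ratio of the members was 0.41, 0.36 and 0.51 in primed plants and 0.38, 0.21 and 0.35 in control plants. With a pseudocount of 1 FPKM, 2 members were called in C30C/C0 and 1 in C60C/C0, and the genes left out were IAA19 and IAA29 in C30C/C0 and IAA29 in C60C/C0.

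IAA6 rose at each time in cold. It stood at 3.56, 11.8, 12.7 and 12.2 FPKM after 0, 30, 60 and 120 min in primed plants and at 4.88, 11.2, 12.7 and 11.8 FPKM in control plants. The level was thus reached within 30 min and then held. IAA2 stood at 46.4, 79.8, 83.3 and 69.0 FPKM in primed plants and at 55.0, 89.2, 76.4 and 72.3 FPKM in control plants, and it passed the threshold in P30C/P0, P60C/P0 and C30C/C0. IAA29 stood at 1.58, 2.71, 1.96 and 5.02 FPKM in primed plants and at 1.24, 2.15, 2.08 and 5.02 FPKM in control plants. Its largest cold response came at 120 min, with log2 ratios of 1.67 in P120C/P0 and 2.02 in C120C/C0. IAA19 (9.37 FPKM in P120C, 10.3 FPKM in C120C) and IAA5 (4.37 FPKM in P120C, 5.97 FPKM in C120C) had also risen at 120 min. IAA1, IAA3, IAA4, IAA7 and IAA17 stayed within 1.5-fold at all times in cold, with log2 ratios between -0.32 and 0.47.

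The triggers were also compared with each other at the same time, which needs no untriggered library. After 30 min, IAA29 was the only member higher in high light than in cold (log2 1.56 in P30L/P30C, 1.01 in C30L/C30C), where 5% and 5.81% of all genes were higher. IAA1, IAA4 and IAA6 were lower, where 9.47% and 7.24% of all genes were lower. IAA6 had 6.78 FPKM in P30L against 11.8 FPKM in P30C, and 4.80 FPKM in C30L against 11.2 FPKM in C30C. In control plants it had thus risen in cold but not yet in high light, whereas in primed plants it had risen under both triggers. Its starting value was lower in P0 (3.56 FPKM) than in C0 (4.88 FPKM), and its log2 ratio P30L/C30L was 0.50, within 1.5-fold. After 60 min, 6 members were higher in high light in primed plants (7.81% of all genes higher, 12.5% lower) and 6 in control plants (8.47% higher, 9.18% lower). The largest ratios were those of IAA29 (4.19 in P60L/P60C, 3.52 in C60L/C60C) and IAA5 (3.05 in P60L/P60C, 2.58 in C60L/C60C). After 120 min, 8 members were higher in primed plants (14.1% of all genes higher, 11.7% lower) and 7 in control plants (14.2% higher, 14.3% lower). Scaled to the reference genes these counts became 5 and 4, and the genes that dropped out were IAA3, IAA4 and IAA6 in primed plants and IAA2, IAA3 and IAA6 in control plants.

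Cold-priming itself altered few members beyond 1.5-fold. During cold none of the 10 passed the threshold between primed and control plants at 30, 60 or 120 min, where 3.2%, 2.47% and 0.873% of all genes were higher and 1.01%, 2.41% and 1.31% were lower in primed plants. IAA4 came closest, with 23.2 FPKM in P60C and 15.7 FPKM in C60C (log2 0.56), and the lowest ratio was that of IAA5 in P120C/C120C (-0.45). In high light IAA29 was higher in primed plants at 30 min (7.99 FPKM in P30L, 4.32 FPKM in C30L, log2 0.89), where 2.52% of all genes were higher and 0.953% lower. Divided by P0/C0 the ratio of IAA29 was 0.54, below the threshold, while that of IAA6 was 0.95 and passed it. IAA19 was higher at 60 min (33.8 FPKM in P60L, 22.2 FPKM in C60L, log2 0.61), where 1.85% of all genes were higher and 4.39% lower. It was 0.55 after scaling to the reference genes. IAA29 (0.58), IAA1 (0.53) and IAA5 (0.49) followed just below the threshold in P60L/C60L. At 120 min no member passed it, against 2.45% of all genes higher and 3.95% lower, and the highest ratios were 0.51 for IAA29 and 0.48 for IAA19.

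The members lay mostly on the same side in high light. At 60 min 9 of the 10 had a higher FPKM in P60L than in C60L, while 42.3% of all analysed genes did, and the median log2 ratio was 0.30 against -0.05 for all genes. The exception was IAA6 with 17.7 FPKM in P60L and 17.8 FPKM in C60L. After scaling to the reference genes the number was 9 as well, and after scaling by median ratios it was 10. The log2 response to 60 min of high light was more positive in primed than in control plants for 10 of 10 members, against 52.5% of all genes. In the same measure it was 7 of 10 at 30 min (56.8% of all genes) and 9 of 10 at 120 min (71.5%) of high light, and 6, 9 and 7 of 10 at 30, 60 and 120 min of cold (70.1%, 62.4% and 59.8%). At 120 min 9 of 10 members were higher in P120L than in C120L, or 8 with either scaling, but 64.6% of all genes were also higher then, so that this share was closer to the background. At 30 min the number was 7 of 10 against 48.1% of all genes. In cold 6, 8 and 6 of the 10 members were higher in primed plants at 30, 60 and 120 min, against 65.2%, 54.8% and 49.8% of all genes. A single pair of libraries underlies each count of P/C ratios. The counts of more positive responses also use P0 and C0, which they all share. IAA6 belongs to the 10 of 10 through its lower value in P0 (log2 P0/C0 -0.46). The counts thus describe these libraries, and the members of a count are not independent of each other.

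**Figure D3:**
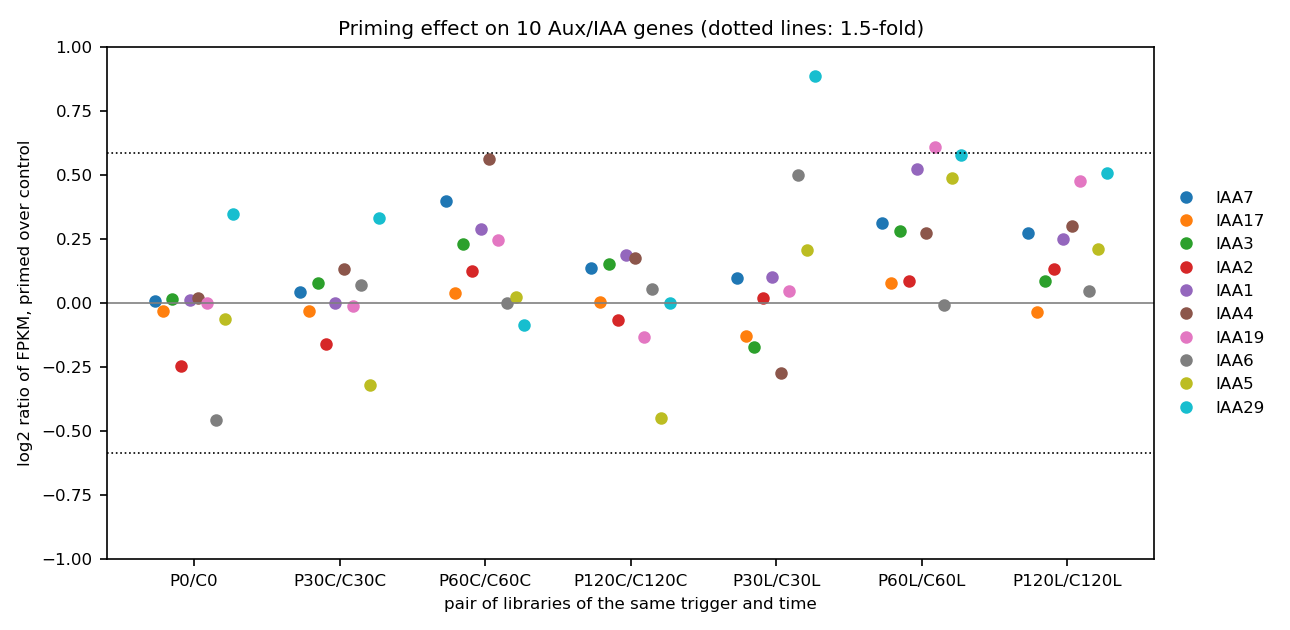
Log2 ratio of FPKM in primed over control plants for each of the 10 members (colours) before triggering and at the same time of the same trigger, with 1 pair of libraries per column and dotted lines at 1.5-fold. Only IAA29 in P30L/C30L (0.89) and IAA19 in P60L/C60L (0.61) lie beyond the lines, and 9 of 10 members lie above 0 in P60L/C60L.

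The position of 5 members in the genome pairs them with another family gene. In TAIR10.1, IAA2 and IAA7 lie on chromosome 3 with 12510 bp between them, and IAA3 and IAA17 on chromosome 1 with 6388 bp between them, and IAA1 lies 10732 bp from the family gene IAA14 on chromosome 4. Each pair is transcribed divergently, away from the gap, with 1 annotated gene, a long non-coding RNA, in between. IAA2, IAA3 and IAA1 rose within 60 min of high light, and their partners did not pass 1.5-fold at that time. IAA14 had 15.99 FPKM in P60L and 15.3 FPKM in P0, and 12.1 FPKM in C60L and 15.6 FPKM in C0.

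The 250 bases before the annotated start of each member were searched on both strands for TGTCTC and TGTCGG, which ARFs are known to bind, and for CACGTG and CACATG, known binding sites of phytochrome-interacting and other bHLH factors. TGTCTC occurred in 4 members (IAA1, IAA5, IAA6 and IAA19) and in 10.9% of 27443 promoters of this length. TGTCGG occurred in 2 members (IAA1 and IAA5) and in 4.16% of all promoters. CACGTG was found in IAA7 and IAA19 (6.49% of all), and CACATG in IAA3, IAA4, IAA6 and IAA19 (11.1% of all). IAA2, IAA17 and IAA29 held none of them in this window. Among the other 19 family genes, TGTCTC occurred in 5, TGTCGG in 4, CACGTG in 2 and CACATG in 2, so the sites were not particular to the members. The sequences of the steepest responders IAA29, IAA5 and IAA19 and of IAA6 are given 5′ to 3′ on the strand of the gene, ending directly before its start, with matches in capitals. On the minus strand the window lies at higher coordinates than the gene.
IAA29 (chr4:15583082-15583331, plus strand): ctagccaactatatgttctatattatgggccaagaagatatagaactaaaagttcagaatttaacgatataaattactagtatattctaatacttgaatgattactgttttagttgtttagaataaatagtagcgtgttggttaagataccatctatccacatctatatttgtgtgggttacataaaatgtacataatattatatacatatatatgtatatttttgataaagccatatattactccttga
IAA5 (chr1:5366498-5366747, minus strand): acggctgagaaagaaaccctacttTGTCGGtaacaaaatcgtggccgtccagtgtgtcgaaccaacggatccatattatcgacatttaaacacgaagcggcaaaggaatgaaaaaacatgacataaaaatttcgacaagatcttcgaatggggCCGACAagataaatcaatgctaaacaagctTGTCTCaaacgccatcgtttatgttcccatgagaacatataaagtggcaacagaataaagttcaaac
IAA19 (chr3:5263751-5264000, plus strand): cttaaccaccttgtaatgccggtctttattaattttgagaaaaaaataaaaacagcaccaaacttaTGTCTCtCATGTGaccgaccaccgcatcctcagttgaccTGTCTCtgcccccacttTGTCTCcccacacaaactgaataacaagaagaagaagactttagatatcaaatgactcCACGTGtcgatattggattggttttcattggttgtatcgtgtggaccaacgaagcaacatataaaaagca
IAA6 (chr1:19673653-19673902, minus strand): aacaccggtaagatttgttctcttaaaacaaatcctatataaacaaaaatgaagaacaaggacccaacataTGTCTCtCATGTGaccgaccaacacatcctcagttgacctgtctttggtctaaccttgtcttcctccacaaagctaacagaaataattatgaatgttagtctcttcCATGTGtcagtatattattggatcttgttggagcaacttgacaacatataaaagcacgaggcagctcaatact
IAA19 held TGTCTC 3 times, with first bases at -184, -145 and -128 relative to the start. In IAA19 and IAA6 the first TGTCTC is followed after 1 base by CATGTG, the reverse complement of CACATG. The promoters of these 2 genes shared an identical run of 23 bases around it, the longest among 45 pairs of members. Their courses differed, since IAA6 was near its highest cold level at 30 min and IAA19 at 120 min. A match of letters is no evidence of binding.

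Genes with the course most like that of the members were looked for by Pearson correlation with the median profile of the 10 genes over 14 libraries, which share their baselines and triggers. The highest values were those of HAT2, a homeodomain-leucine zipper gene (r = 0.98), AT5G22270 (0.96), MAKR6 (0.96), the protein kinase gene AT5G40540 (0.95) and the calreticulin family gene AT5G07340 (0.94). HAT2 had 53.6 FPKM in P60L and 36.5 FPKM in C60L, against 14.2 FPKM in P0 and 12.4 FPKM in C0. Among the members themselves r to this profile was 0.95 for IAA3, 0.93 for IAA5 and IAA19, 0.61 for IAA4, -0.10 for IAA7 and -0.27 for IAA17.

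The other genes of the family and of the auxin pathway were counted at 60 min of high light in the same way. Of all analysed genes 10.8% rose and 10.4% fell in P60L/P0, and 10.1% rose and 10.6% fell in C60L/C0. Counts of 1 or 2 in these short lists cannot be told apart from such shares. Of the other 19 Aux/IAA genes 12 passed the filter, of which 0 had risen and 1 had fallen in P60L/P0 (median log2 -0.14) and 1 had risen and 2 had fallen in C60L/C0 (-0.20). IAA11 was the one that had risen in C60L/C0, with 4.35 FPKM in C60L and 2.46 FPKM in C0. IAA30, which failed the filter, had 0.52 FPKM in P0 and 0.88 FPKM in C0. It reached 2.27 FPKM in P60L, 1.54 FPKM in C60L, 5.5 FPKM in P120L and 4.26 FPKM in C120L. IAA34 failed it too and was at 4.54 FPKM in P120L and 3.8 FPKM in C120L, against 0.46 and 0.31 FPKM in P0 and C0. The others that failed it reached at most 1.04 FPKM (IAA33 in C120L). Higher levels in high light were thus not limited to the members. Of 6 receptor genes of the TIR1/AFB group 3 had fallen in both sets of plants (median -0.57 in P60L/P0, -0.52 in C60L/C0). TIR1 itself had 12.8 FPKM in P60L and 14.2 FPKM in C60L, against 35.0 FPKM in P0 and 33.3 FPKM in C0. Of 14 ARF genes none had risen, whereas 8 had fallen in P60L/P0 and 7 in C60L/C0, among them ARF10 and ARF16. Of 5 TOPLESS genes none had risen, and 1 had fallen in P60L/P0 and 0 in C60L/C0. Of 4 genes for auxin conjugation and oxidation 2 had risen and 1 had fallen in both sets of plants. GH3.6, a conjugating enzyme, was the one that fell, with 2.23 FPKM in P60L and 2.75 FPKM in C60L, against 3.52 FPKM in P0 and 6.66 FPKM in C0. GH3.3, which also encodes an enzyme that conjugates auxin to amino acids, had 11.8 FPKM in P60L and 5.30 FPKM in C60L, against 0.86 FPKM in P0 and 1.23 FPKM in C0. Of 11 genes of auxin transport 2 had risen and 3 had fallen in P60L/P0, and 1 had risen and 3 had fallen in C60L/C0. Of 2 synthesis genes none had risen, and 1 had fallen in P60L/P0 and 0 in C60L/C0.

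**Figure D4:**
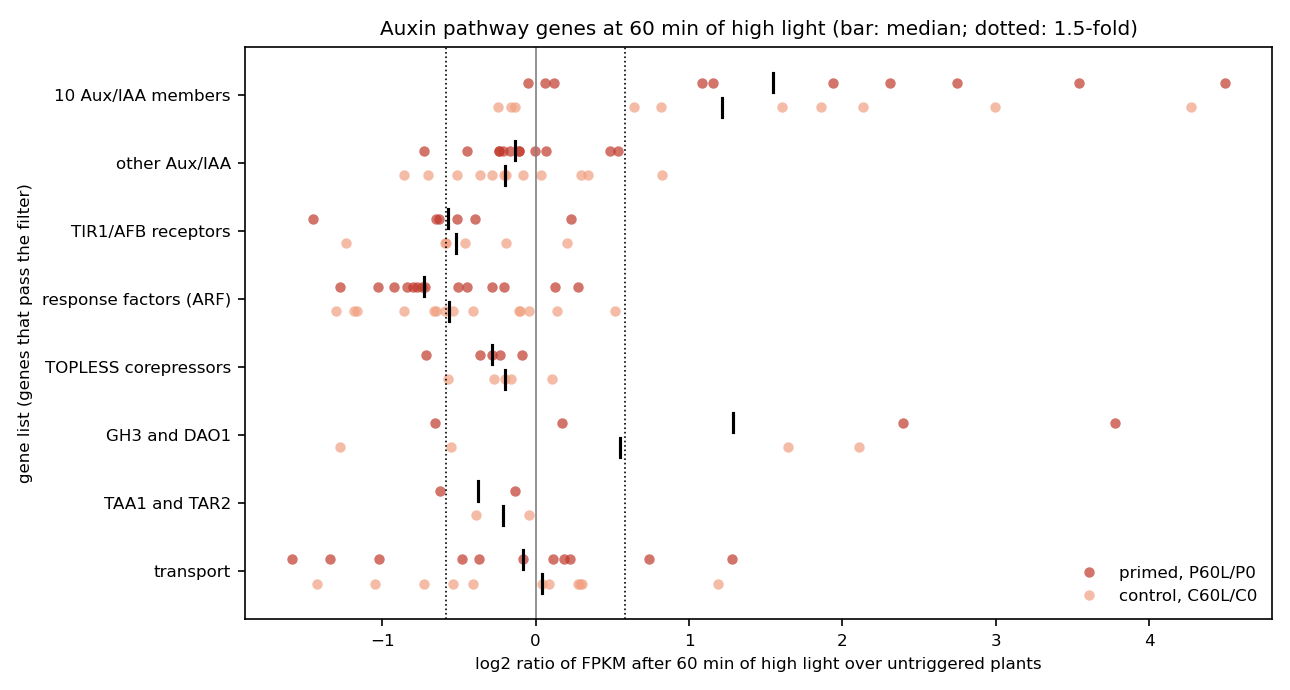
Log2 ratio of FPKM after 60 min of high light over the untriggered library for the 10 Aux/IAA members and for the genes of 7 further auxin lists that pass the filter, with primed plants (dark red) above control plants (light red) in each row, a black bar at the median and dotted lines at 1.5-fold. The medians of the members were 1.55 in primed and 1.21 in control plants, and those of receptors, response factors and corepressors lay below 0.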

How the data were processed

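Entire rosettes of Col-0 were sequenced on a BGI-Seq platform with 1 library per condition. The authors removed low-quality reads, aligned the rest to TAIR10 and deposited 1 table of FPKM values for 27861 genes. The methods name Bowtie2 and RSEM and the submitters' processing notes HISAT2 2.1.0, so that the treatment of reads shared by similar genes is not certain. All 14 columns were matched to samples by name. FPKM values were used without scaling or pseudocount. Analysed genes reached 0.5 FPKM in both untriggered libraries and 2 FPKM on average, and a ratio of at least 1.5-fold was called in either direction. As no condition has replicates, no test was run. The script was tested on simulated data with changes far larger than 1.5-fold and little noise, so calls near the threshold were not covered. Coordinates and sequences are from the RefSeq annotation of TAIR10.1, which uses the same gene identifiers. The members, the gene lists and the alternatives were chosen with earlier results of these data known. The rule for named genes was all members, up to 3 genes per auxin list with the largest response of control plants, and the 5 genes most similar to the members. Not all genes picked by this rule are given. Markers, shade genes, IAA14, family genes that failed the filter, TAR2, DAO2 and YUC9 were named outside it. Python 3.11.15, pandas 2.3.3 and NumPy 2.4.6 were used. Depth is known only relative to C0, and no interval is given.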

Additional observations from a re-analysis of the deposited data

Results flagged for a closer look

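IAA1 and IAA4 lay on opposite sides of their untriggered level at 30 min, above it in cold and below it in high light, in primed as well as in control plants. On the log2 scale the ratio of high light to cold was -1.58 in primed and -1.68 in control plants for IAA1, and -1.35 in primed and -0.94 in control plants for IAA4. The difference was not tested, since each value rests on 1 pair of libraries, and only the fall in high light passed 1.5-fold.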

How the results depend on the processing

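No called value changed its direction under any alternative, but this could not have turned out otherwise. The filters and the 2-fold threshold leave each ratio as it is, and a pseudocount cannot change its sign. The scalings and the changed baselines shifted ratios by less than the 1.5-fold needed for a call. The absence of reversals is therefore no evidence that the calls are robust. All 10 members also passed a stricter filter, with the limit on average FPKM raised to 10, so their counts could not change. This check cannot decide whether low values mattered, because IAA29, IAA5 and IAA19 passed it through their high-light values. Outside high light these genes reached at most 5.02, 5.97 and 10.3 FPKM. With P/C ratios divided by P0/C0 the counts stayed within 1.5 times, but the member called in P30L/C30L was IAA6 (0.95) in place of IAA29 (0.54). With a pseudocount of 1 FPKM the members that rose were 2 instead of 4 in C30C/C0 and 1 instead of 2 in C60C/C0. At 2-fold 1 rose in C30C/C0, 1 in C60C/C0, 1 in P30C/P0, 1 in P60C/P0, 2 in P120C/P0 and 1 in P30L/P0, 1 fell in C30L/C0 and 1 in P30L/P0, 0 were higher in P30L/C30L and in P60L/C60L, and 4 were higher in C120L/C120C and 4 in P120L/P120C. Fewer calls follow from the stricter threshold itself. Scaled to the 8 reference genes, 0 members were higher in P60L/C60L, 4 in C120L/C120C and 5 in P120L/P120C. This scaling moved the median of all genes by -0.23 in P120L/P0, -0.22 in P120L/P120C, -0.18 in P60L/P0 and -0.10 to -0.14 in 5 further ratios. Scaled by median ratios, which moved it by 0.12 in C30C/C0, 3 members rose in C30L/C0, 2 were higher in P60L/C60L and 5 in P120L/P120C. With the mean of C0 and P0 as baseline 2 rose in C30L/C0. No pairing by replicate was possible because each condition has 1 library and no replicate numbers link libraries, and no replicate could be left out. A fit over the 7 matched pairs of primed and control libraries, which differ in trigger and time, was not run. The spread between plants is unknown.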

Other observations

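Of 5 genes known from shade responses 4 passed the filter, and these had risen after 60 min of high light in both sets of plants, while XTH15 failed it and had 0.64 FPKM in P60L and 0.19 FPKM in C60L. Of all analysed genes 10.8% rose in P60L/P0 and 10.1% in C60L/C0. In cold 3 of the 4 genes had also risen at 60 min in both sets of plants. There 9.35% of all genes rose in P60C/P0 and 6.43% in C60C/C0. The bHLH gene PIL1 had 121 FPKM in P60L and 102 FPKM in C60L, against 1.77 FPKM in P0 and 1.88 FPKM in C0. ATHB2, a homeodomain-leucine zipper gene, was highest at 30 min, with 298 FPKM in P30L and 282 FPKM in C30L, whereas HAT2 of the same class had 11.9 FPKM in P30L and 11.4 FPKM in C30L and was high only from 60 min on.

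Single genes of auxin turnover differed between the primed and the control library, and those given here were chosen after their values were seen. DAO1, which oxidises auxin, had 7.08 FPKM in P120L and 19.6 FPKM in C120L, but it was already lower before triggering, with 2.31 FPKM in P0 and 4.58 FPKM in C0. DAO2, which failed the filter, had 0.80 FPKM in P120L and 5.92 FPKM in C120L. GH3.3 was nearly equal in these libraries, with 30.7 FPKM in P120L and 30.0 FPKM in C120L. The auxin synthesis gene YUC9, which failed the filter as well, had 8.99 FPKM in P30L and 10.9 FPKM in C30L, against 0.05 FPKM in P0 and 0.02 FPKM in C0, and stood at 3.02 FPKM in P120L and 2.48 FPKM in C120L. Of the 2 synthesis genes that passed the filter, TAR2 stayed within 1.5-fold at 120 min of high light and TAA1 fell. TAA1 had 1.56 FPKM in P120L and 0.92 FPKM in C120L, against 3.27 FPKM in P0 and 3.12 FPKM in C0. At 30 min of high light IAA5 was at 3.09 FPKM in P30L and 2.68 FPKM in C30L. IAA29 was by then at 7.99 FPKM in P30L and 4.32 FPKM in C30L. A link between YUC9 and the members was not tested.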
